A study of Mus musculus with 6 samples.

Results

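The 50 genes described here carry out mitosis: they drive a cell into division, attach its chromosomes to the spindle, pull them apart and split the cell. They form a list of gene symbols, and all 50 were found among the 20325 gene symbols of the RNA sequencing files. By role they comprise 10 cyclins, kinases and their regulators, 12 spindle checkpoint and kinetochore genes, 4 genes of anaphase promotion and separation, 8 spindle motors and microtubule proteins, 9 chromosomal passengers and cytokinesis genes, and 7 genes of chromosome structure.

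The cells were 2 mouse pre-iPSC lines, pre3 and pre2-2, at passage 10, made from fibroblasts of OG2 transgenic mice on a mixed 129SVJ, C57B6 and CBA background. Pre-iPSCs are fibroblasts caught partway through reprogramming to pluripotency. Each line was transfected with an siRNA against Tet1 (siTet1), transfected with a control siRNA or left untransfected, and all 6 cultures received LIF and, at 50 µg/ml, vitamin C, so no culture without vitamin C enters here. Each of the 6 combinations gave 1 library. The times differ between labels: by the design text vitamin C was added at 16 h and RNA taken 32 h after that, but by the sample labels RNA was taken 48 h from transfection with 36 h in vitamin C. The labels name the agent Tet siRNA in one place and siTet1 in another, and call the cells MEFs where the design text calls them pre-iPSCs. No treatment was repeated within a line. In the fit of treatment and line, the p-values therefore rest on how far treatment differences disagreed between the 2 lines. That spread was mostly shared over all genes (prior degrees of freedom 23.2, residual 2). A call thus does not show that the 2 lines agreed for that gene. The p-values do not measure the variation between repeat cultures of a line. Whether a line is 1 clone is not given in the sources used here.

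A dividing cell makes most of these messenger RNAs late in its cycle. Cyclin B and the kinase Cdk1 start mitosis, the kinetochore ties each chromosome to spindle fibres, and the spindle checkpoint holds the cell back until every chromosome is attached. The anaphase-promoting complex then triggers the destruction of cyclin B and securin, separase cuts the cohesin rings, and a contractile ring divides the cell. In bulk RNA, fewer dividing cells and less RNA per dividing cell cannot be told apart. Many such genes share promoter elements: CCAAT boxes, bound by NF-Y, and the cell-cycle genes homology region (CHR), bound by the DREAM and MuvB complexes.

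The shared promoter letters are shown first, because they link genes of all 6 roles. RefSeq windows of 300 bases, 250 before the annotated start and 50 after it (GRCm38.p6), were found for 41 of the 50 genes. They were searched on both strands for the CHR as TTTGAA or TTCGAA and for CCAAT; a CHR can overlap CCAAT by at most 1 base, CCAATTGG was counted as 2 matches since it reads CCAAT on either strand, and a gene with several windows was counted once if any of them held a match. A CHR was found in 33 of the 41 genes (80.5%), against 16% of the 7973 tested genes with a window and 21.7% of all 27025 genes with one. CCAAT was found in 32 (78%), against 43.8% of the tested genes and 41.1% of all, and 20 genes (48.8%) had 2 or more, against 17.3% and 13.3%. Both elements stood together in 30 of the 41 genes (73.2%), against 6.79% of tested and 8.61% of all genes. Among 27 DNA replication genes, which act earlier in the cycle, 22.2% had a CHR, 63% had CCAAT and 18.5% had both. The CHR share ran from 72.7% of 11 checkpoint and kinetochore genes to 85.7% of 7 motor and of 7 cytokinesis genes. These letter matches are descriptions and show no binding.

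The sequences are the 250 bases before the start of 4 genes to which the results return, 5′ to 3′ on the coding strand, with CHR and CCAAT matches in capitals. The stretches lie at chr7:135716380-135716629 (minus strand) for Mki67, chr11:99024190-99024439 (minus strand) for Top2a, chr2:164769679-164769928 (plus strand) for Ube2c and chr2:119618048-119618297 (plus strand) for Nusap1. Mki67 and Top2a were called lower with siTet1 against untransfected cells, and hold 2 and 4 CHR matches with 3 and 6 CCAAT matches. Ube2c, the member with the highest mean level, holds 1 CHR and 6 CCAAT. Nusap1, also called lower, holds neither. Of the other members called lower, Cdca8, Aurka, Cenpe and Cdc25b hold no CHR in these 250 bases, and Bub1b and Ect2 hold 1. In the 50 bases after the start, Cdca8, Aurka, Cdc25b, Bub1b and Ect2 each hold 1 CHR. All of these but Cenpe are thus among the genes counted above with a CHR in the 300-base window. Aurkb and Kif20a had no window.
Mki67: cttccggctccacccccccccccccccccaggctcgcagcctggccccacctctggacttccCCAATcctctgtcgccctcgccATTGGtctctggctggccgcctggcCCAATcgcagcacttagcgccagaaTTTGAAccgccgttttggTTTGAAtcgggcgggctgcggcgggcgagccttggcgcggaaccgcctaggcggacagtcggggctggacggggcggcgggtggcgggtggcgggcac
Top2a: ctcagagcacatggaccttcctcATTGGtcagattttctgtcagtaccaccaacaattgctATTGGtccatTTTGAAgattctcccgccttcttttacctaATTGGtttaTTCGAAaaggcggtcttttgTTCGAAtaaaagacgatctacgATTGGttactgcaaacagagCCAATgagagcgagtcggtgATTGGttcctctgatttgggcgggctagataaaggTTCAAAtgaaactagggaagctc
Ube2c: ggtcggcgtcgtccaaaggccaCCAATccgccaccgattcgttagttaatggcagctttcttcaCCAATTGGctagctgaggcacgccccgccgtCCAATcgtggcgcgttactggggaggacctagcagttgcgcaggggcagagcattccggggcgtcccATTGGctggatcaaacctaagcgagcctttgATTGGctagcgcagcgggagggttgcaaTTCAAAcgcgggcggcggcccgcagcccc
Nusap1: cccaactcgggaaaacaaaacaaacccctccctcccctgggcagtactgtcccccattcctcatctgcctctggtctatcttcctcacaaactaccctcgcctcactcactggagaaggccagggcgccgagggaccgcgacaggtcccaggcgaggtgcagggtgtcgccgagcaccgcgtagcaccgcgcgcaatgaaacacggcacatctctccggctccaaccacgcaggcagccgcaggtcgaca

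Library totals ran from 1868640 to 2582803 expected counts, and 13506 to 14128 genes had a count. Tet1, the targeted gene, stood in pre3 at 159 CPM with siTet1, 251 CPM with control siRNA and 205 CPM untransfected, and in pre2-2 at 154 CPM with siTet1, 246 CPM with control siRNA and 250 CPM untransfected. CPM is the count relative to library size, with TMM scaling. Its log2 fold change was -0.67 against control siRNA (edgeR adjusted p = 0.0043) and -0.54 against untransfected cells (adjusted p = 0.00951), so the knockdown was partial. Marker genes differed between libraries as well. The summed level of 13 fibroblast markers was 6058 CPM with siTet1, 5116 CPM with control siRNA and 5137 CPM untransfected in pre3, and 12267 CPM with siTet1, 10339 CPM with control siRNA and 5619 CPM untransfected in pre2-2. In this sum the untransfected pre2-2 library stood apart from the 2 transfected libraries of its line. Most of each pre3 sum was Fn1, at 3557 CPM with siTet1, 2870 CPM with control siRNA and 3220 CPM untransfected. Col1a1 stood in pre3 at 480 CPM with control siRNA and 367 CPM untransfected, and Col5a1 at 148 and 98.5 CPM. Fn1 and Col3a1 (132 and 140 CPM) went the other way, so the nearly equal pre3 sums hide differences between markers. The sum of 13 pluripotent cell markers was 7033 to 8122 CPM in pre3 and 2371 to 3021 CPM in pre2-2, with Lin28a at 0 in 3 libraries, Esrrb at 0 in 2 and Nanog at 0 in 1, and of the fibroblast markers Lum was at 0 in 3. Most of the pre3 sum was Pou5f1, at 5794 to 6619 CPM in pre3 and 1042 to 1208 CPM in pre2-2. Of the 9 tested pluripotent markers, 5 were called lower in pre3 than in pre2-2 and 3 higher, Pou5f1 among the 3. Of all genes, 15.8% were called lower and 14.4% higher. The sum of 10 interferon response genes was 249 CPM with siTet1, 346 CPM with control siRNA and 196 CPM untransfected in pre3, and 330 CPM with siTet1, 844 CPM with control siRNA and 159 CPM untransfected in pre2-2, with 5 of the 10 at 0 in untransfected pre3 cells. Most of the pre3 sums was Bst2, at 177 CPM with siTet1, 204 CPM with control siRNA and 178 CPM untransfected. Oas2 stood in pre3 at 27.7 CPM with siTet1, 73.6 CPM with control siRNA and 2.05 CPM untransfected, so the sums hide larger relative differences. Of 12 tested fibroblast markers, 1 was called higher with siTet1 against control siRNA, 10 with siTet1 against untransfected and 6 with control siRNA against untransfected cells. Of 9 tested pluripotent markers these numbers were 3, 3 and 0. Of 8 tested interferon genes, 6 were called lower with siTet1 against control siRNA. Against untransfected cells, 5 of them were called higher with siTet1 and 8 with control siRNA. Over all genes, 1.15%, 4.92% and 1.38% were called higher in the 3 comparisons in turn. In siTet1 against control siRNA, 0.434% of all genes were called lower. The part of these marker differences in the mitosis genes' values was not tested.

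All 50 mitosis genes were expressed in every library, with 52 counts (Cdc25c, pre3 siTet1) to 1832.5 counts (Mki67, pre2-2 untransfected), and all 50 passed the filter on low counts that left 11048 genes. On a per-length scale, their median level in a library was 85.5 to 129 TPM, which accounts for transcript length, against 17.7 to 19.8 TPM over all genes with a count. The highest mean over the 6 libraries was that of Ube2c at 395 TPM (range 335 to 465), followed by Cdc20 at 291 TPM (252 to 343) and Ccnb1 at 263 TPM (198 to 313). Cenpf was lowest at 30.3 TPM (22.4 to 35.1), near Cdc25b at 35.7 TPM (20.8 to 51.5) and Cdc25c at 37.3 TPM (28.6 to 47.6). The ranges of Ube2c and Cdc20 overlapped, as did those of Cdc20 and Ccnb1 and those of the lowest 3, so the order at either end is not fixed. By role, the median of the mean levels was highest for the 4 anaphase genes (240 TPM) and lowest for the 12 checkpoint and kinetochore genes (53.5 TPM).

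The sum of all 50 genes gives the overall pattern. In pre3 they took 0.857% of all counts with siTet1, 0.994% with control siRNA and 0.985% untransfected. In pre2-2 they took 0.674% with siTet1, 0.785% with control siRNA and 0.931% untransfected. The siTet1 library was the lowest of its line in both lines, while the control siRNA library lay below the untransfected one in pre2-2 and close to it in pre3. Scaled by library size, the summed count with siTet1 was 0.852 of that with control siRNA in pre3 (exact 95% counting interval 0.834 to 0.87) and 0.862 in pre2-2 (0.842 to 0.881). Against untransfected cells the siTet1 sum was 0.846 in pre3 (0.828 to 0.864) and 0.724 in pre2-2 (0.709 to 0.739). Control siRNA stood at 0.993 of untransfected in pre3 (0.973 to 1.01) and at 0.841 in pre2-2 (0.824 to 0.858). With 1 library in each place these intervals cover counting error only.

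**Figure D1:**
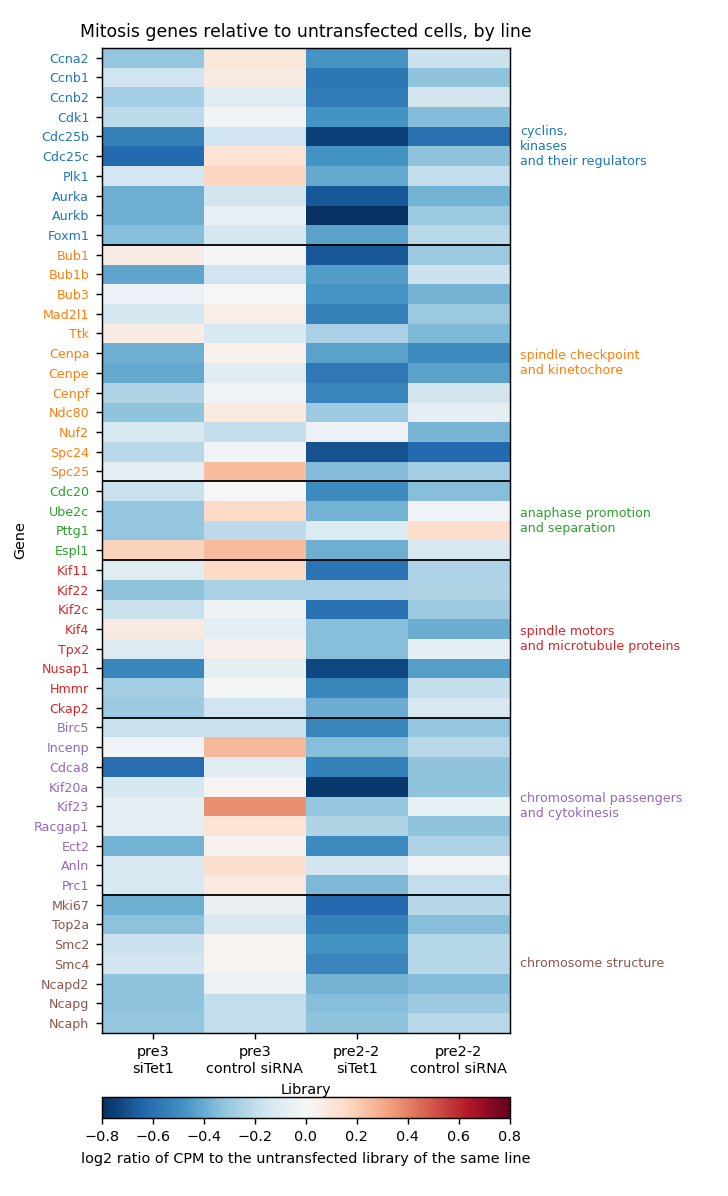
The 50 mitosis genes (rows, grouped and coloured by role) in the siTet1 and control siRNA libraries of pre3 and pre2-2 (columns), as the log2 ratio of CPM to the untransfected library of the same line; blue is lower and red higher. The siTet1 columns are lower for 46 genes in pre3 and 50 in pre2-2, and the control siRNA columns for 29 in pre3 and 49 in pre2-2.

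Set against control siRNA, which shares the transfection, siTet1 libraries had slightly lower levels of most mitosis genes. No mitosis gene was called (edgeR's quasi-likelihood test with the line in the model, adjusted p under 0.05 over all 11048 genes), where 0.434% of all genes were called lower and 1.15% higher. The fitted log2 fold change was negative for 47 of the 50, with a median of -0.21, against 49.3% negative and a median of 0.00 over all genes tested. Of the 50, 14 had an unadjusted p under 0.05, against 1196 of the 11048. The range ran from -0.45 for Cdc25c to 0.18 for Nuf2. DESeq2 called 0 members as well. A fit of the 4 siTet1 and control siRNA libraries alone, with the line as block, called 7. That fit also called more of all genes than the main fit, as given in the last section.

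Within the lines, siTet1 stood below control siRNA for 45 of 50 genes in pre3 (median log2 ratio -0.20) and 45 in pre2-2 (-0.22), and for 43 in both. The counting interval of the ratio lay below 1 for 22 genes in pre3 and 19 in pre2-2, and above 1 for 0 in both. Nuf2, Ttk and Kif4 were higher with siTet1 in both lines. Bub1, Cenpa, Birc5 and Racgap1 had opposite signs in the lines. Each such ratio sets 1 library against 1, so it carries no test.

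Against untransfected cells, which differ from siTet1 cells by the transfection too, the differences were larger. Here 11 of the 50 were called lower and 0 higher, where 1.63% of all genes were called lower and 4.92% higher. They were Aurka, Aurkb, Cdc25b, Bub1b, Cenpe, Nusap1, Cdca8, Ect2, Kif20a, Mki67 and Top2a. All 50 fitted changes were negative, from -0.64 for Cdc25b to -0.09 for Nuf2, with a median of -0.35 against 0.01 over all genes. Over all genes, 48.5% of the changes were negative. An unadjusted p under 0.05 was reached by 35 of the 50, against 2157 of the 11048. This count depended on the fit and on single libraries: DESeq2 called 0, the fit without the line as block called 0, and it was 0 without the siTet1 library of pre2-2, 5 without the untransfected library of pre2-2, 6 without the siTet1 library of pre3 and 36 without the untransfected library of pre3. The number of all genes called was likewise lowest without the siTet1 library of pre2-2 and highest without the untransfected library of pre3. The member median stayed between -0.49 and -0.24 in these leave-one-out fits.

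Control siRNA against untransfected cells shows what went with transfection without siTet1. No member was called, by edgeR or by DESeq2, where 0.0996% of genes were called lower and 1.38% higher. The fitted change was negative for 45 of 50, with a median of -0.16, against 49.4% negative and a median of 0.00 over all genes. Of the 50, 1 had an unadjusted p under 0.05, against 1016 of the 11048. Within pre3 the median log2 ratio was -0.01, with 29 of 50 lower, and within pre2-2 it was -0.28, with 49 lower. Without the untransfected library of pre3 the median was -0.26, and without that of pre2-2 it was 0.00. All 3 treatment comparisons share libraries, so their values are not independent of each other.

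**Figure D2:**
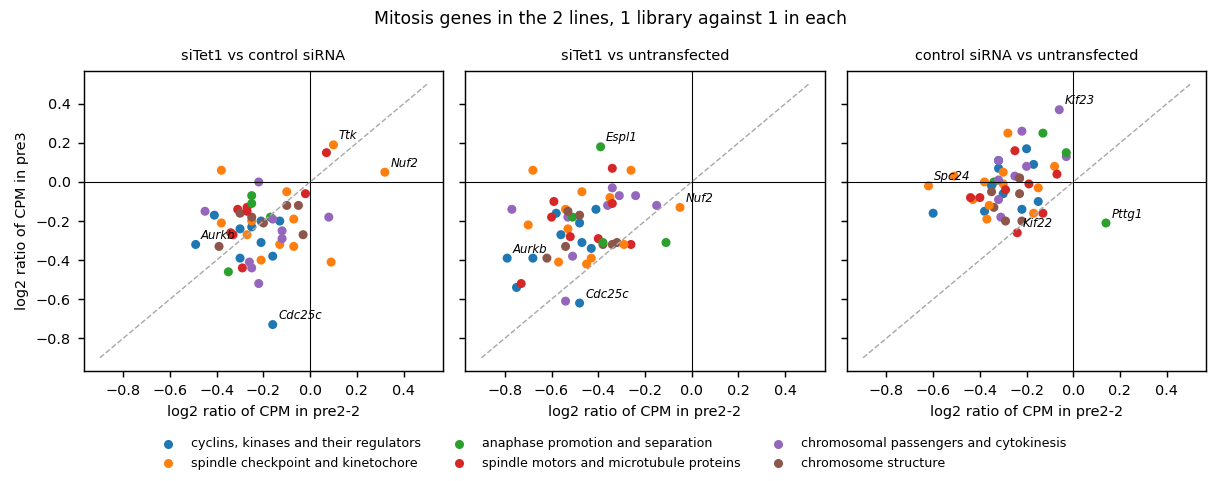
Each point is 1 mitosis gene, coloured by role, with its log2 ratio of CPM between 2 libraries of pre2-2 (x axis) and of pre3 (y axis), for siTet1 against control siRNA, siTet1 against untransfected and control siRNA against untransfected; the dashed line marks equal ratios. In the first panel 43 genes lie at the lower left and the medians are -0.20 in pre3 and -0.22 in pre2-2; in the last panel the points spread around 0 in pre3 (median -0.01) and lie left of 0 in pre2-2 (median -0.28).

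The order of the treatments differed in form between the lines. In pre3, 24 of 50 genes were ordered siTet1 below control siRNA below untransfected, and in pre2-2 44 were. The siTet1 library was the lowest for 44 genes in pre3 and 45 in pre2-2. The control siRNA library was the highest for 21 genes in pre3 and 1 in pre2-2, which was Pttg1. A test of the line by siTet1 interaction, in which each line's control siRNA and untransfected libraries stand in as replicates, called 0 members and 0% of all genes, with 1 member and 270 genes at an unadjusted p under 0.05. A test of line by transfection was added after the data were seen. It took each line's siTet1 and control siRNA libraries as replicates and set them against its 1 untransfected library. Any siTet1 effect thus enters both its fitted value and its spread. It also called 0 members, against 0.00905% of all genes (1 gene). The fitted interaction, the difference of the transfection effect in pre3 minus that in pre2-2, was positive for 48 of 50 members with a median of 0.26, against -0.02 over all genes, and the smallest adjusted p was 0.884. The difference between the lines in the effect of transfection was thus not shown by this test.

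The libraries of the 2 lines also differed. The 3 differently treated libraries of a line stood in as its replicates, so the p-values speak for these libraries and not for lines in general. In pre3 against pre2-2, 19 members were called higher and 1 lower, where 14.4% of all genes were called higher and 15.8% lower. The median fitted difference was 0.26, against 0.00 over all genes, and 47 of 50 were positive. DESeq2 called 8 of these 20. The count was 9 without any 1 of the siTet1 or control siRNA libraries, 30 without the untransfected library of pre2-2 and 31 without that of pre3. In all 6 of these fits 8 of the 20 stayed called: Cdc25b, Pttg1, Nusap1, Hmmr, Mki67, Top2a, Smc4 and Anln. Kif22 was lost in all 6, and 9 others were lost in the 4 fits without a siTet1 or control siRNA library. The median pre3 minus pre2-2 difference was 0.30 with siTet1 (45 of 50 higher in pre3), 0.37 with control siRNA (48 higher) and 0.09 untransfected (34 higher). The summed fibroblast markers were lower in pre3 in all 3 treatments, 5116 to 6058 CPM against 5619 to 12267 CPM in pre2-2, and their part in the line difference was not tested.

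**Figure D3:**
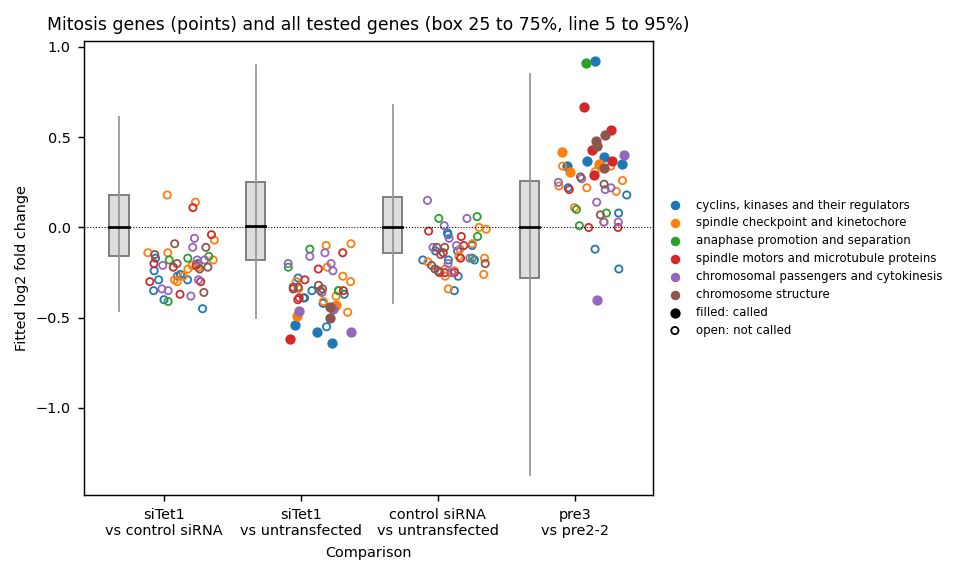
Fitted log2 fold changes (y axis) of the 50 mitosis genes (points, coloured by role; filled where called at an adjusted p under 0.05) in the 4 comparisons (x axis), beside all 11048 tested genes (box from the 25th to the 75th percentile with the median, line from the 5th to the 95th). The member medians are -0.21, -0.35 and -0.16 in the treatment comparisons and 0.26 between the lines, and the filled points number 0, 11, 0 and 20.

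Among the 10 cyclins, kinases and their regulators, every fitted change was negative in each treatment comparison, and in each line all 10 stood lower in the siTet1 library than in the control siRNA library. Their median log2 fold change was -0.28 against control siRNA and -0.40 against untransfected cells, where all 10 had an unadjusted p under 0.05 and 3 were called. Cdc25b stood in pre3 at 56.4 CPM with siTet1, 73.6 CPM with control siRNA and 82.1 CPM untransfected, and in pre2-2 at 29.5 CPM with siTet1, 32.9 CPM with control siRNA and 49.7 CPM untransfected. It encodes a phosphatase that activates Cdk1. Its siTet1 level lay below its untransfected level in each line, but the siTet1 level of pre3 lay above the untransfected level of pre2-2. Against untransfected cells its log2 fold change was -0.64 (SE 0.18, edgeR adjusted p = 0.0281). In pre3, Aurka had 114 CPM with siTet1, 135 CPM with control siRNA and 150 CPM untransfected, and in pre2-2 it had 81.5 CPM with siTet1, 100 CPM with control siRNA and 131 CPM untransfected. Aurora A kinase works at the spindle poles. Its change against untransfected cells was -0.54 (SE 0.14, adjusted p = 0.0182). Aurkb stood in pre3 at 88.8 CPM with siTet1, 111 CPM with control siRNA and 116 CPM untransfected, and in pre2-2 at 58.5 CPM with siTet1, 82.5 CPM with control siRNA and 101 CPM untransfected. Aurora B is the kinase of the chromosomal passenger complex. Its change was -0.58 against untransfected cells (SE 0.15, adjusted p = 0.0173) and -0.40 against control siRNA (SE 0.15, unadjusted p = 0.0153, adjusted p = 0.281). For both Aurora kinases the siTet1 library was the lowest and the untransfected library the highest of each line.

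None of the cyclins was called between treatments. Ccna2 stood in pre3 at 198 CPM with siTet1, 260 CPM with control siRNA and 245 CPM untransfected, and in pre2-2 at 185 CPM with siTet1, 227 CPM with control siRNA and 255 CPM untransfected. Cyclin A2 serves Cdk2 and Cdk1, and its change against control siRNA was -0.35 (SE 0.12, unadjusted p = 0.00917, adjusted p = 0.215). The 2 siTet1 values lay below the 4 others. Of the 50-base stretches in its transcripts, 12.8% also occur in other genes of the data, most often the neighbouring gene Exosc9, so reads could be shared. Ccnb1 was measured in pre3 at 306 CPM with siTet1, 360 CPM with control siRNA and 343 CPM untransfected, against 216 CPM with siTet1, 258 CPM with control siRNA and 323 CPM untransfected in pre2-2. Cyclin B1 starts mitosis with Cdk1, and 40.6% of its 50-base stretches occur in other annotated genes. The most often shared was the pseudogene Ccnb1-ps, which was not analysed here. In pre3 its control siRNA library was the highest, in pre2-2 the untransfected one. In pre3, Cdk1 had 175 CPM with siTet1, 201 CPM with control siRNA and 203 CPM untransfected, and in pre2-2 it had 131 CPM with siTet1, 144 CPM with control siRNA and 183 CPM untransfected. Its fitted change against control siRNA was -0.17 (adjusted p = 0.718), the least negative of the group. Plk1 stood in pre3 at 122 CPM with siTet1, 151 CPM with control siRNA and 134 CPM untransfected, and in pre2-2 at 127 CPM with siTet1, 147 CPM with control siRNA and 169 CPM untransfected. Polo-like kinase 1 acts at centrosomes and kinetochores, and 10.7% of its 50-base stretches occur in other annotated genes, most often Plk-ps1. In pre3, Foxm1 had 117 CPM with siTet1, 134 CPM with control siRNA and 148 CPM untransfected, and in pre2-2 it had 134 CPM with siTet1, 154 CPM with control siRNA and 180 CPM untransfected. FoxM1 is a transcription factor of late cell-cycle genes, and its own message followed the same order in both lines, siTet1 lowest and untransfected highest, without a call (-0.20 against control siRNA, adjusted p = 0.634; -0.39 against untransfected, adjusted p = 0.0777). Cdc25c stood in pre3 at 27.7 CPM with siTet1, 45.8 CPM with control siRNA and 42.6 CPM untransfected, and in pre2-2 at 28.1 CPM with siTet1, 31.4 CPM with control siRNA and 39.2 CPM untransfected. This second Cdk1-activating phosphatase had 52 to 101 counts and the most negative change against control siRNA, -0.45 (SE 0.22, adjusted p = 0.448), which came mainly from pre3.

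Between the lines, 5 of the 10 were called higher in pre3. The difference in pre3 against pre2-2 was 0.92 for Cdc25b (SE 0.15, adjusted p = 2.46e-05), a 1.89-fold level, and 0.35 for Ccnb1 (SE 0.10, adjusted p = 0.00903). It was 0.34 for Cdk1 (SE 0.11, adjusted p = 0.0152), 0.37 for Aurka (SE 0.11, adjusted p = 0.0155) and 0.39 for Aurkb (SE 0.12, adjusted p = 0.0161). Without any 1 of the siTet1 or control siRNA libraries, all of these but Cdc25b lost the call. Foxm1 and Plk1 had the opposite sign, -0.23 and -0.12, without a call.

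**Figure D4:**
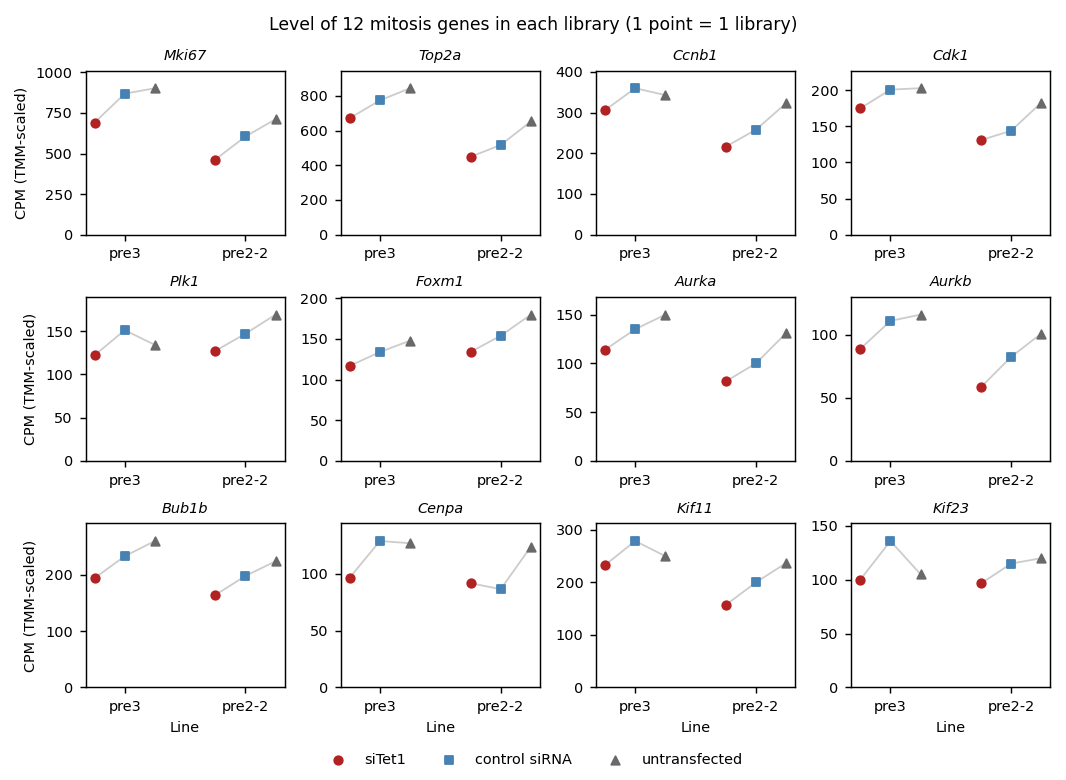
CPM after TMM scaling (y axis, from 0) of 12 mitosis genes in each library; red circles are siTet1, blue squares control siRNA and grey triangles untransfected cells, for pre3 (left) and pre2-2 (right). Mki67 lies at 691, 869 and 903 CPM in pre3 and at 463, 605 and 712 CPM in pre2-2 (siTet1, control siRNA and untransfected in turn), and only Cenpa in pre2-2 has its siTet1 point above the control siRNA point.

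The 12 checkpoint and kinetochore genes differed in direction among themselves. Against control siRNA, 10 of 12 fitted changes were negative with a median of -0.19, and within each line 9 of 12 were lower. Against untransfected cells all 12 were negative with a median of -0.32, and 2 were called. Bub1b stood in pre3 at 194 CPM with siTet1, 233 CPM with control siRNA and 260 CPM untransfected, and in pre2-2 at 164 CPM with siTet1, 198 CPM with control siRNA and 224 CPM untransfected. BubR1, its product, is a core protein of the spindle checkpoint. Its 2 lines followed the same order, and its change against untransfected cells was -0.43 (SE 0.12, edgeR adjusted p = 0.0281). In pre3, Cenpe had 141 CPM with siTet1, 175 CPM with control siRNA and 187 CPM untransfected, and in pre2-2 it had 113 CPM with siTet1, 124 CPM with control siRNA and 168 CPM untransfected. CENP-E is the kinesin that moves chromosomes to the spindle equator. Its change was -0.49 against untransfected cells (SE 0.13, adjusted p = 0.0245) and -0.26 for control siRNA against untransfected (SE 0.13, unadjusted p = 0.0591, adjusted p = 0.577), so in pre2-2 most of the step was present with control siRNA.

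Cenpa stood in pre3 at 96.8 CPM with siTet1, 129 CPM with control siRNA and 127 CPM untransfected, and in pre2-2 at 91.8 CPM with siTet1, 86.5 CPM with control siRNA and 124 CPM untransfected. CENP-A is the histone variant that marks centromeres. With siTet1 it was lower than control siRNA in pre3 and slightly higher in pre2-2, and its fitted change was -0.18 (adjusted p = 0.755). In pre3, Bub1 had 126 CPM with siTet1, 120 CPM with control siRNA and 121 CPM untransfected, and in pre2-2 it had 76.8 CPM with siTet1, 99.7 CPM with control siRNA and 123 CPM untransfected. Bub1 recruits the checkpoint proteins to the kinetochore. In pre3 the 3 libraries lay close together, whereas in pre2-2 they stood apart with siTet1 the lowest, and it had the smallest p of the line by siTet1 interaction (0.60, SE 0.25, unadjusted p = 0.0351, adjusted p = 1). Spc24 stood in pre3 at 54.8 CPM with siTet1, 62.9 CPM with control siRNA and 63.6 CPM untransfected, and in pre2-2 at 45.9 CPM with siTet1, 48.1 CPM with control siRNA and 74.6 CPM untransfected. Spc24 and Nuf2 are subunits of the Ndc80 complex, the microtubule-binding part of the kinetochore. Spc24 had a fitted change of -0.34 in control siRNA against untransfected cells (SE 0.18, unadjusted p = 0.0674, adjusted p = 0.604), and within pre2-2 both transfected libraries lay far below the untransfected one. Nuf2 stood in pre3 at 57.4 CPM with siTet1, 55.4 CPM with control siRNA and 63.1 CPM untransfected, and in pre2-2 at 54.3 CPM with siTet1, 43.5 CPM with control siRNA and 55.9 CPM untransfected. Nuf2 was the one with the highest fitted value against control siRNA, 0.18, from 85.5 to 144 counts. In pre3 against pre2-2, 3 of the 12 were called higher: Mad2l1, a checkpoint protein that binds Cdc20, at 0.42 (SE 0.12, adjusted p = 0.00779), Cenpf, a large outer kinetochore protein, at 0.35 (SE 0.11, adjusted p = 0.012) and Cenpe at 0.31 (SE 0.11, adjusted p = 0.0303). In pre3, Mad2l1 had 114 CPM with siTet1, 131 CPM with control siRNA and 126 CPM untransfected, and in pre2-2 it had 75.9 CPM with siTet1, 90.1 CPM with control siRNA and 111 CPM untransfected. Cenpf stood in pre3 at 168 CPM with siTet1, 194 CPM with control siRNA and 198 CPM untransfected, and in pre2-2 at 118 CPM with siTet1, 153 CPM with control siRNA and 170 CPM untransfected. For both, every pre3 library lay above the pre2-2 library of the same treatment. None of the 3 was called without any 1 of the siTet1 or control siRNA libraries.

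The 4 anaphase genes included the member with the highest mean TPM. Ube2c stood in pre3 at 155 CPM with siTet1, 214 CPM with control siRNA and 193 CPM untransfected, and in pre2-2 at 147 CPM with siTet1, 187 CPM with control siRNA and 191 CPM untransfected. It encodes the ubiquitin-conjugating enzyme of the anaphase-promoting complex. Its siTet1 values lay below the 4 others. Its change was -0.41 against control siRNA (SE 0.13, unadjusted p = 0.00359, adjusted p = 0.125 by edgeR) and -0.35 against untransfected cells (adjusted p = 0.105), with 0.06 for control siRNA against untransfected. Of its 50-base stretches 15.1% also occur in other genes of the data, most often Tnnc2, the gene beside it. Pttg1 was measured in pre3 at 86.2 CPM with siTet1, 92.8 CPM with control siRNA and 107 CPM untransfected, against 46.8 CPM with siTet1, 55.7 CPM with control siRNA and 50.5 CPM untransfected in pre2-2. Securin, its product, holds separase inactive until anaphase. All 3 pre3 libraries lay above all 3 of pre2-2, and the difference was 0.91 (SE 0.13, adjusted p = 6.05e-06), a 1.87-fold level in pre3 and the smallest p of the 50. Between treatments its change was -0.17 against control siRNA (adjusted p = 0.791). Espl1 stood in pre3 at 146 CPM with siTet1, 154 CPM with control siRNA and 129 CPM untransfected, and in pre2-2 at 122 CPM with siTet1, 145 CPM with control siRNA and 159 CPM untransfected. Separase had the highest log2 ratio of the 50 with siTet1 against untransfected cells in pre3, 0.18, against -0.39 in pre2-2. Its interaction of line with siTet1 was 0.37 (SE 0.24, unadjusted p = 0.15, adjusted p = 1). In pre3, Cdc20 had 241 CPM with siTet1, 273 CPM with control siRNA and 274 CPM untransfected, and in pre2-2 it had 212 CPM with siTet1, 238 CPM with control siRNA and 301 CPM untransfected. Cdc20 activates the anaphase-promoting complex, and 11.6% of its 50-base stretches occur in other annotated genes, most often the pseudogene Gm7856.

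Of the 8 spindle motors and microtubule proteins, 1 was called against untransfected cells. Nusap1 stood in pre3 at 126 CPM with siTet1, 170 CPM with control siRNA and 180 CPM untransfected, and in pre2-2 at 77.7 CPM with siTet1, 94.6 CPM with control siRNA and 128 CPM untransfected. It bundles microtubules near the chromosomes. Its change against untransfected cells was -0.62 (SE 0.14, edgeR adjusted p = 0.00618), against control siRNA -0.37 (SE 0.14, adjusted p = 0.282). The siTet1 library was the lowest of each line, though in pre3 it stood at about the level of untransfected pre2-2 cells. In pre3, Kif11 had 233 CPM with siTet1, 279 CPM with control siRNA and 250 CPM untransfected, and in pre2-2 it had 157 CPM with siTet1, 200 CPM with control siRNA and 237 CPM untransfected. This kinesin pushes the spindle poles apart. In pre2-2 siTet1 was the lowest and untransfected the highest, whereas in pre3 the control siRNA library was the highest, and its fitted change against control siRNA was -0.30 (SE 0.13, adjusted p = 0.389). Kif22 stood in pre3 at 136 CPM with siTet1, 142 CPM with control siRNA and 171 CPM untransfected, and in pre2-2 at 115 CPM with siTet1, 116 CPM with control siRNA and 137 CPM untransfected. Kif22, a chromosome-arm kinesin, had a fitted change of -0.25 in control siRNA against untransfected cells (SE 0.13, unadjusted p = 0.0671, adjusted p = 0.603) and of -0.04 in siTet1 against control siRNA. Kif2c stood in pre3 at 114 CPM with siTet1, 125 CPM with control siRNA and 129 CPM untransfected, and in pre2-2 at 98.4 CPM with siTet1, 122 CPM with control siRNA and 149 CPM untransfected. Kif2c removes tubulin from microtubule ends, and its line by siTet1 interaction was 0.31 (SE 0.25, unadjusted p = 0.238, adjusted p = 1), with 0.30 for Kif11 (SE 0.24, unadjusted p = 0.242, adjusted p = 1). Kif4 was higher with siTet1 than with control siRNA in both lines (log2 ratio 0.15 in pre3 and 0.07 in pre2-2). Of its 50-base stretches 15.9% also occur in other genes of the data, most often Pdzd11.

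By line, 5 of the 8 were called higher in pre3. Nusap1 differed by 0.67 (SE 0.11, adjusted p = 5.77e-05), Kif11 by 0.37 (SE 0.11, adjusted p = 0.0102) and Kif22 by 0.29 (SE 0.11, adjusted p = 0.0454). In pre3, Hmmr had 216 CPM with siTet1, 261 CPM with control siRNA and 263 CPM untransfected, and in pre2-2 it had 138 CPM with siTet1, 173 CPM with control siRNA and 198 CPM untransfected. Ckap2 stood in pre3 at 132 CPM with siTet1, 145 CPM with control siRNA and 162 CPM untransfected, and in pre2-2 at 92.7 CPM with siTet1, 112 CPM with control siRNA and 122 CPM untransfected. Hmmr and Ckap2 bind spindle microtubules, and they differed by 0.54 (SE 0.10, adjusted p = 0.000169) and 0.43 (SE 0.11, adjusted p = 0.00396). For Hmmr the lowest pre3 library lay above the highest of pre2-2. The call of Kif22 was lost without any 1 library, that of Kif11 without any 1 siTet1 or control siRNA library, and that of Ckap2 without either siTet1 library.

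Among the 9 chromosomal passengers and cytokinesis genes, all 9 fitted changes were negative against control siRNA (median -0.21) and against untransfected cells (median -0.24), and 3 were called in the second. Cdca8 stood in pre3 at 94.1 CPM with siTet1, 135 CPM with control siRNA and 144 CPM untransfected, and in pre2-2 at 88.1 CPM with siTet1, 103 CPM with control siRNA and 128 CPM untransfected. Borealin, its product, anchors the chromosomal passenger complex at centromeres. Its change was -0.58 against untransfected cells (SE 0.14, edgeR adjusted p = 0.0114) and -0.38 against control siRNA (SE 0.14, unadjusted p = 0.0145, adjusted p = 0.276). The 2 siTet1 values, 94.1 and 88.1 CPM, lay below the 4 others. In pre3, Ect2 had 165 CPM with siTet1, 220 CPM with control siRNA and 215 CPM untransfected, and in pre2-2 it had 163 CPM with siTet1, 194 CPM with control siRNA and 232 CPM untransfected. Ect2 activates RhoA to start the contractile ring. Its siTet1 values also lay below the 4 others, with -0.45 against untransfected cells (SE 0.13, adjusted p = 0.0287) and -0.34 against control siRNA (SE 0.13, unadjusted p = 0.0137, adjusted p = 0.272). Kif20a stood in pre3 at 203 CPM with siTet1, 225 CPM with control siRNA and 225 CPM untransfected, and in pre2-2 at 134 CPM with siTet1, 184 CPM with control siRNA and 230 CPM untransfected. This kinesin carries the passenger complex to the spindle midzone. Its call against untransfected cells, -0.46 (SE 0.14, adjusted p = 0.0426), came mainly from pre2-2 (log2 ratio -0.77, against -0.14 in pre3), and its line by siTet1 interaction was 0.48 (SE 0.24, unadjusted p = 0.0743, adjusted p = 1). Of its 50-base stretches 27.3% also occur in other genes of the data, most often the overlapping gene Cdc23, so its count may hold reads of that gene.

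In pre3, Kif23 had 100 CPM with siTet1, 136 CPM with control siRNA and 105 CPM untransfected, and in pre2-2 it had 96.5 CPM with siTet1, 115 CPM with control siRNA and 120 CPM untransfected. Kif23 and Racgap1 form centralspindlin, the core of the spindle midzone. In pre3 the control siRNA library of Kif23 stood above both others, which were close to each other, and its change was -0.35 against control siRNA (adjusted p = 0.339) but -0.20 against untransfected cells (adjusted p = 0.487). Control siRNA was lower than untransfected for 2 of the 9 genes in pre3 and for 9 in pre2-2. Anln stood in pre3 at 287 CPM with siTet1, 341 CPM with control siRNA and 312 CPM untransfected, and in pre2-2 at 387 CPM with siTet1, 422 CPM with control siRNA and 431 CPM untransfected. Anillin, the scaffold of the contractile ring, was the 1 member called lower in pre3 than in pre2-2, at -0.40 (SE 0.09, adjusted p = 0.00128), and each pre3 library lay below each pre2-2 library. In pre3, Prc1 had 184 CPM with siTet1, 210 CPM with control siRNA and 199 CPM untransfected, and in pre2-2 it had 132 CPM with siTet1, 148 CPM with control siRNA and 169 CPM untransfected. Prc1 bundles midzone microtubules and was the 1 member of the group called higher in pre3, at 0.40 (SE 0.11, adjusted p = 0.00468), a call lost without any 1 of the siTet1 or control siRNA libraries. Of its 50-base stretches 19.8% are also in other genes of the data, most often Rccd1.

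All 7 chromosome structure genes stood lower in the siTet1 library than in the control siRNA library of each line, with a median fitted change of -0.20. Against untransfected cells the median was -0.34, all 7 had an unadjusted p under 0.05 and 2 were called. Mki67 stood in pre3 at 691 CPM with siTet1, 869 CPM with control siRNA and 903 CPM untransfected, and in pre2-2 at 463 CPM with siTet1, 605 CPM with control siRNA and 712 CPM untransfected. Ki-67 coats mitotic chromosomes and is the usual marker of cycling cells. Its siTet1 library was the lowest and its untransfected library the highest of each line. It had the smallest p of the 50 in both siTet1 comparisons, with -0.50 against untransfected cells (SE 0.10, edgeR adjusted p = 0.00225) and -0.36 against control siRNA (SE 0.10, unadjusted p = 0.00151, adjusted p = 0.0769). In pre3, Top2a had 672 CPM with siTet1, 775 CPM with control siRNA and 845 CPM untransfected, and in pre2-2 it had 449 CPM with siTet1, 517 CPM with control siRNA and 653 CPM untransfected. Topoisomerase II alpha untangles sister DNA before segregation. Its change was -0.44 against untransfected cells (SE 0.10, adjusted p = 0.00831), -0.20 against control siRNA (adjusted p = 0.471) and -0.23 for control siRNA against untransfected (SE 0.10, unadjusted p = 0.0298, adjusted p = 0.44), so the transfection step was about as large as the siTet1 step. The next smallest p-values in that comparison were those of Cdc25b (-0.35, SE 0.17, unadjusted p = 0.0567, adjusted p = 0.57), Cenpe (-0.26, SE 0.13, unadjusted p = 0.0591, adjusted p = 0.577) and Aurka (-0.27, SE 0.14, unadjusted p = 0.0616, adjusted p = 0.584).

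In pre3 against pre2-2, 4 of the 7 were called higher. The difference was 0.51 for Top2a (SE 0.08, adjusted p = 3.19e-05) and 0.48 for Mki67 (SE 0.08, adjusted p = 6.18e-05). In pre3, Smc4 had 255 CPM with siTet1, 286 CPM with control siRNA and 283 CPM untransfected, and in pre2-2 it had 165 CPM with siTet1, 203 CPM with control siRNA and 238 CPM untransfected. Ncapd2 stood in pre3 at 366 CPM with siTet1, 441 CPM with control siRNA and 456 CPM untransfected, and in pre2-2 at 304 CPM with siTet1, 310 CPM with control siRNA and 395 CPM untransfected. Smc4 and Ncapd2 are condensin subunits, which compact the chromosomes. Smc4 differed by 0.45 (SE 0.10, adjusted p = 0.00126) and Ncapd2 by 0.33 (SE 0.09, adjusted p = 0.0085), a call lost without either control siRNA library. The line by siTet1 interaction of Smc4 was 0.27 (SE 0.23, unadjusted p = 0.268, adjusted p = 1). Of Ncapg, another condensin subunit, 18.5% of 50-base stretches occur in other genes of the data, most often Lcorl.

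Other cell-cycle genes were set beside the members as lists. Over all genes tested against control siRNA, 0.434% were called lower and 1.15% higher. Against control siRNA, 0 genes were called among 16 genes of the anaphase-promoting complex and its regulators (median 0.00), 15 of cohesin (-0.11), 26 other kinetochore and centromere genes (-0.24), 35 other mitotic kinases, motors and spindle genes (-0.13), 19 MuvB, B-Myb and E2F factors (-0.11) and 35 DNA replication genes (-0.12). Among 17 tested G1 cyclins and cell-cycle inhibitors (median -0.04), Ccnd1 was called lower, and it is the cyclin that drives G1. Ccnd1 had 296 CPM with siTet1, 392 CPM with control siRNA and 341 CPM untransfected in pre3, and 422 CPM with siTet1, 801 CPM with control siRNA and 634 CPM untransfected in pre2-2. Its change was -0.67 against control siRNA (SE 0.12, edgeR adjusted p = 0.00164) and -0.40 against untransfected cells (adjusted p = 0.0409).

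Against untransfected cells, 7 genes of the mitotic lists were called lower and 0 higher. They were Fbxo5, an inhibitor of the anaphase-promoting complex, at -0.62 (adjusted p = 0.0333), the kinetochore genes Zwilch at -0.53 (adjusted p = 0.0461) and Hjurp, the chaperone of CENP-A, at -0.40 (adjusted p = 0.0473), and Cdca3, Kif18b, Cks2 and Aspm at -0.56, -0.53, -0.51 and -0.50 (adjusted p = 0.0136, 0.0442, 0.0274 and 0.0287). These were 1 of 16 genes of the anaphase-promoting complex, 2 of 26 other kinetochore genes and 4 of 35 other mitotic genes. Over all genes, 1.63% were called lower and 4.92% higher. Cohesin genes (median -0.20) and the MuvB, B-Myb and E2F factors (-0.20) had 0 called. DNA replication genes had 0 of 35 called, with 34 negative and a median of -0.25. Among G1 genes, Cdk4 was lower (-0.37, adjusted p = 0.0494) and the inhibitor Cdkn2b (1.01, adjusted p = 0.0114) and the cyclin Ccnd3 (0.62, adjusted p = 0.0061) were higher. Cdkn2b had 18.6 CPM with siTet1 and 9.75 CPM untransfected in pre3, and 42.6 CPM with siTet1 and 20.6 CPM untransfected in pre2-2. In control siRNA against untransfected cells none of these 7 lists had a called gene, where 0.0996% of all genes were called lower and 1.38% higher. The replication genes summed to 5111 CPM with siTet1, 5489 CPM with control siRNA and 5588 CPM untransfected in pre3, and to 4198 CPM with siTet1, 4671 CPM with control siRNA and 5525 CPM untransfected in pre2-2, so they stood in the same order as the mitosis genes in pre2-2.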

How the data were processed

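RNA from 6 libraries (2 lines by 3 treatments) was sequenced after TruSeq preparation, per the labels. The authors deposited, per gene symbol, an RSEM expected count, which is not normalized, and a fraction of transcripts, scaled here to TPM. RSEM 1.1.21 and mm9 are named in the submitters' processing notes, while read length and aligner settings are not given in the sources used here. Between 28.1 and 31% of the values above 0 in a library were not whole, so expected counts were rounded.

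Counts were tested with edgeR 4.0.16 in R 4.3.3: TMM scaling (factors 0.982 to 1.01), filterByExpr with a minimum count of 10, and a two-sided quasi-likelihood test of treatment and line in all 6 libraries (residual degrees of freedom 2, prior 23.2), with Benjamini-Hochberg adjustment over 11048 genes and calls at 0.05. The procedure was tested on simulated data. DESeq2 1.42.0 was an alternative. The line served as the block because both lines were given all treatments; deviations of same-line libraries from their treatment means correlated across genes at 0.67 to 0.77. Standard errors were derived from the fold change and its F statistic. Intervals cover counting error only.

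Full values were given for members called in a comparison, for those with the 6 smallest p-values where fewer were called, and for 12 genes picked to stand for the roles; other members named for a range or a change of sign were chosen after their values were seen. In other lists at most 6 called genes were named. The members and lists were chosen with earlier results of these data known. Promoter windows came from RefSeq (GRCm38.p6). They were not found for 9 members: Spc24, Kif20a, Ccna2, Foxm1, Aurkb, Cdc25c, Tpx2, Smc4 and Incenp. Shared 50-base stretches were counted in GENCODE transcripts of GRCm38, not in the mm9 set used for counting.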

Additional observations from a re-analysis of the deposited data

Results flagged for a closer look

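A few mitosis genes were picked out because the siTet1 library moved one way in one line and the other way in the other. Against control siRNA these were Cenpa (log2 ratio -0.41 in pre3 and 0.09 in pre2-2), Bub1 (0.06 in pre3 and -0.38 in pre2-2), Racgap1 (-0.18 in pre3 and 0.08 in pre2-2) and Birc5 (0.00 after rounding in pre3 and -0.22 in pre2-2). Against untransfected cells they were Bub1 (0.06 in pre3 and -0.68 in pre2-2), Espl1 (0.18 in pre3 and -0.39 in pre2-2), Kif4 (0.07 in pre3 and -0.34 in pre2-2) and the checkpoint kinase Ttk (0.06 in pre3 and -0.26 in pre2-2). For each gene, the ratio that was not negative had a counting interval that included 1, so that side did not exceed counting error. Each ratio rests on 1 library against 1, and these differences between the lines were not tested pair by pair. In the line by siTet1 interaction, which pools both kinds of control, the smallest unadjusted p among the 50 members was that of Bub1, 0.0351, with an edgeR adjusted p of 1. In control siRNA against untransfected cells, 21 members were higher in pre3 and lower in pre2-2, and 1, Pttg1, was lower in pre3 and higher in pre2-2.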

How the results depend on the processing

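Scaling by RLE factors or library totals alone changed no direction or count beyond 1.5 times. Without the filter on low counts 1 member was called in siTet1 against control siRNA, and 292, 259 and 7 genes in siTet1 against control siRNA, control siRNA against untransfected and the line by siTet1 interaction. DESeq2 called 0 members in siTet1 against untransfected and 8 in pre3 against pre2-2, and 24, 85, 32 and 1429 genes in siTet1 against control siRNA, siTet1 against untransfected, control siRNA against untransfected and pre3 against pre2-2. Without the line as replicate block, 0 members and 0 genes were called in each treatment comparison. With 4 libraries and the block, siTet1 against control siRNA called 7 members and 613 genes. Pooling both controls, chosen after seeing the data, gave 114 genes and a member median of -0.29. The cause of these shifts was not tested.

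Leaving out 1 library at a time gave these ranges, with the library left alone in its treatment assumed to vary like the others. For siTet1 against control siRNA they were 0 to 8 members, 34 to 632 genes and a median of -0.29 to -0.15. For siTet1 against untransfected they were 0 to 36 members and 172 to 1900 genes, for control siRNA against untransfected 0 to 6 members and 27 to 733 genes, for pre3 against pre2-2 9 to 31 members and 2152 to 3631 genes, and for the line by siTet1 interaction 0 to 5 genes. Of the 11 members called in siTet1 against untransfected, Mki67, Nusap1 and Top2a were lost in the fewest fits: DESeq2, the fit without the block and the fit without the siTet1 library of pre2-2. No result reversed its direction.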
